A study of Homo sapiens with 4 samples.

Results

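The vacuolar H+-ATPase (V-ATPase) and the ion channels of endosomes and lysosomes were examined in HK-2 cells with and without doxycycline induction of PRCC-TFE3. The set held 42 genes of the 34080 genes measured, listed by name with earlier results of these data known: 9 subunits of the membrane sector V0, 12 subunits of the cytosolic sector V1, 9 accessory proteins or assembly factors, and 12 channels, exchangers or their partners. HK-2 cells were derived from the proximal tubule of a human kidney and immortalised. The cells carried a Tet-On system that expresses an HA-tagged fusion of PRCC and TFE3, the chimeric transcription factor of a renal carcinoma, when doxycycline is given. Doxy(+) cultures received 0.2 microg/ml doxycycline for 24 h and Doxy(-) cultures received none, with 2 polyA RNA libraries in each group. All 4 libraries came from transgene-bearing cells, so doxycycline and PRCC-TFE3 cannot be told apart. Separate cultures are not stated for the libraries of a group. The p-values therefore measure the spread between these libraries, which may be technical.

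The V-ATPase is a rotary proton pump. Its V1 sector hydrolyses ATP and turns a ring of c subunits in the V0 sector, which moves protons into the lumen of endosomes, lysosomes and the Golgi. The 2 sectors separate and rejoin as a means of control, and several subunits exist as paralogs with restricted tissue use. Chloride/proton exchangers of the CLC family carry the counter charge, while TRPML channels, two-pore channels and TMEM175 release calcium, sodium, potassium or protons from the organelle. TFE3 and its relatives TFEB and MITF are known to bind the letters CACGTG (an E-box), above all with T before or A after them, in promoters of many lysosomal genes, V-ATPase genes among them.

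The deposited estimated counts came to between 14042545 and 16618401 per library. TFE3, which also takes reads of the transgene, went from 66.9 and 69.0 CPM (counts scaled to a library total of 1000000) in Doxy(-) 1 and 2 to 367 and 322 CPM in Doxy(+) 1 and 2, a log2 fold change of 2.34. Of the proximal tubule markers examined, PAX8 and GGT1 were well expressed, whereas LRP2, AQP1, ANPEP and HNF4A were at or near 0 in every library. All 6 markers of intercalated cells, the acid-secreting cells of the collecting duct that carry much V-ATPase, summed to at most 1.32 CPM in any library, and FOXI1, their defining factor, was at 0 throughout. Of 5 epithelial markers 3 were called lower in Doxy(+), namely KRT8, KRT18 and KRT19, CDH1 was below 1 CPM, and the sum of the 5 ran from 1372 to 1389 CPM in Doxy(-) and from 1109 to 1114 CPM in Doxy(+). Their part in the results below was not tested.

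Expression of the pump and its channels was mostly higher in Doxy(+). Of the 42 members, 40 passed the low-count filter and 25 of these (62.5%) were called higher at an adjusted p under 0.05 (edgeR quasi-likelihood test, Benjamini-Hochberg adjustment over 13569 genes), where 9.76% of all genes tested were called higher. TPCN1 alone was called lower, where 9.53% of all genes tested were, and 14 members were not called. The median log2 fold change of the 40 was 0.38, against 0.00062 over all genes tested, and 37 of the 40 had a positive value. The 6 members called with a log2 fold change over 1 were ATP6V0D2, CLCN5, CLCN4, MCOLN1, ATP6V1C1 and ATP6V1F, where 1.5% of all genes tested were past both limits upwards. For 34 of the 40 members the values of the Doxy(+) libraries did not overlap those of the Doxy(-) libraries. The matching share over all genes tested was not counted, so this number is not read as a result about the members. Summed over all members, CPM ratios of Doxy(+) to Doxy(-) were 1.37 for the whole set, 1.62 for V1, 1.36 for V0, 1.23 for the channels and 1.18 for the accessory proteins. The channel sum is dominated by TPCN1, without which the ratio was 1.57, and TPM ratios were 1.31 for both the channels and the accessory proteins. Whether the classes differ from each other was not tested.

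**Figure D1:**
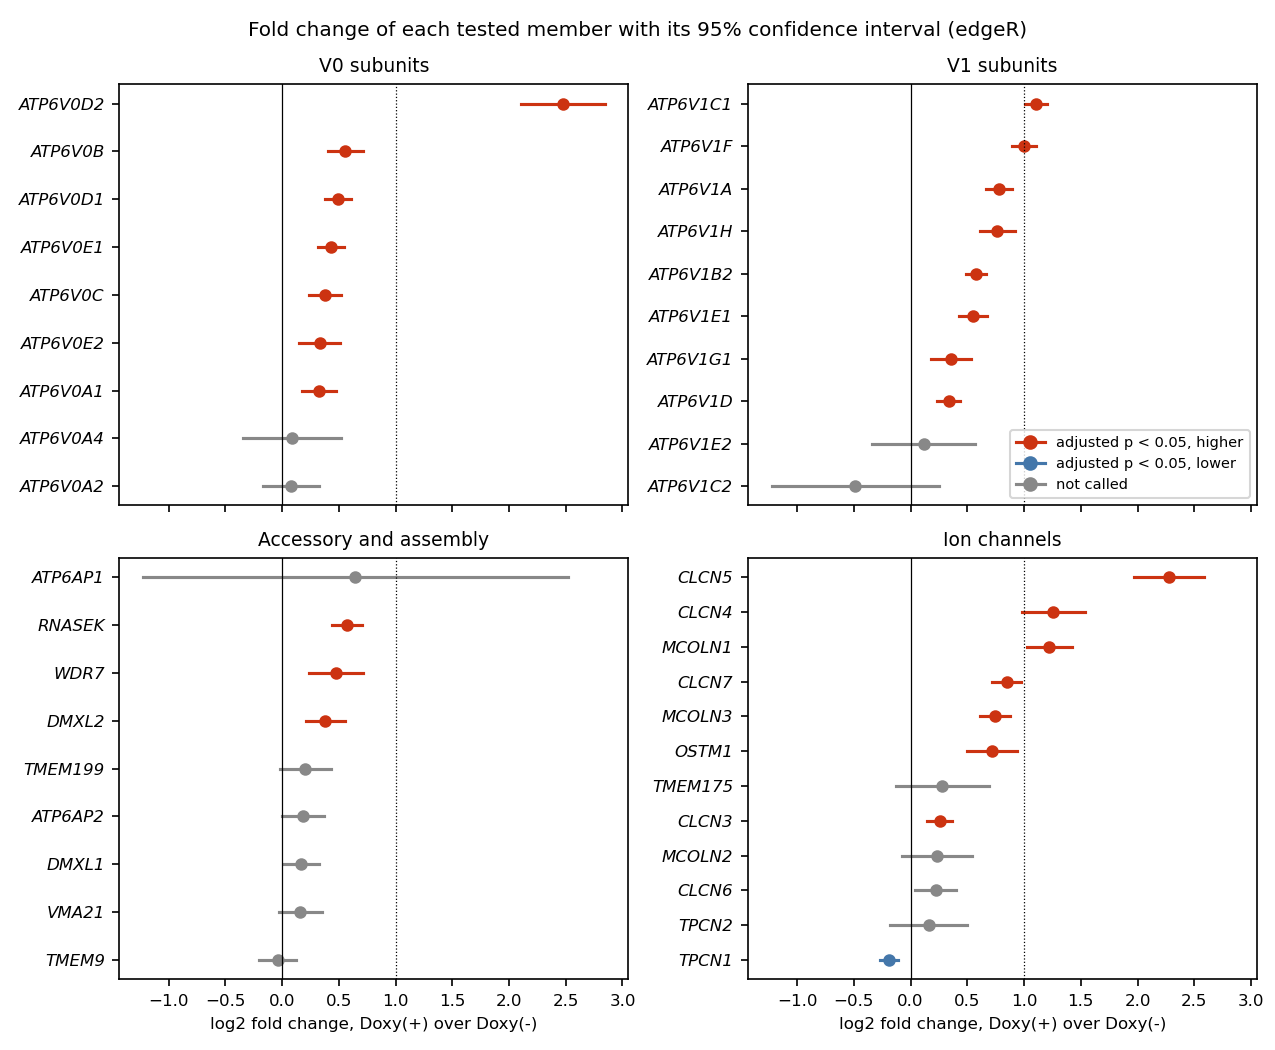
Log2 fold change of Doxy(+) over Doxy(-) for the 40 tested members, by class, with points for the edgeR estimate and lines for its 95% confidence interval. Red marks an adjusted p under 0.05 with a higher value in Doxy(+), blue a lower value, and grey no call; the dotted line is a log2 fold change of 1. ATP6V0D2 and CLCN5 lie farthest to the right, TPCN1 is the blue point, and ATP6AP1 has the widest interval.

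Because the factor's recognition letters are known, the RefSeq promoter windows (GRCh38.p14, 250 bases before to 50 after a start) of the members were searched on both strands. A window was found for 32 of the 42 members, 45 windows in all; ATP6V0D2, ATP6V0E1, ATP6V1A, ATP6V1B2, ATP6V1C1, ATP6V1E2, ATP6V1H, MCOLN2, RNASEK and TMEM199 had none. CACGTG stood in a window of 9 of the 32 (28.1%), where 7.26% of all 35116 windows and 12.7% of the tested genes with a window held it. Those members were ATP6V0B, ATP6V0D1, ATP6V0E2, ATP6V1G1, CLCN4, CLCN5, CLCN6, CLCN7 and MCOLN1. Of the 9, 8 were called higher and CLCN6 was not, while of the 21 tested members whose windows lacked the letters 10 were called higher. Over all tested genes that have a window, 20.2% of those with CACGTG in it and 8.67% of those without were called higher. TCACGTG or its complement CACGTGA, which contain the E-box, stood in windows of the same 9 members, so each of them held the longer letters too. The longer letters stood in 3.71% of all windows and in a window of 7.43% of the tested genes with a window. Among the tested genes with a window, 28.4% of those with the longer letters and 8.67% of those without were called higher. TCATGTG or its complement CACATGA, another form of the site, stood in windows of ATP6V0C, CLCN5, CLCN6 and VMA21 (12.5% of the 32), of which 2 were called higher. This form stood in 2.92% of all windows and in a window of 2.61% of the tested genes with a window. Of all tested genes with a window, 34.6% of those with these letters and 9.48% of those without were called higher, whereas the median log2 fold change of the members was 0.30 with them and 0.35 without. A match is a description of the letters and not evidence of binding.

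The upstream sequences below are those of the called members with the largest fold changes that hold CACGTG before the start, shown because the matches lie within 60 bases of it, 5′ to 3′ on the strand of the gene, with CACGTG in capitals. CLCN4 and MCOLN1 are given as the 120 bases before the start. The other stretches are 30 bases around the matches, since the longer stretch runs into exons of other transcripts of the same gene, and the 30 bases of CLCN7 still overlap such an exon.
CLCN5 (chrX:50067526-50067555, plus strand): caaaggtctggtCACGTGactccaacagtg
CLCN4 (chrX:10156855-10156974, plus strand): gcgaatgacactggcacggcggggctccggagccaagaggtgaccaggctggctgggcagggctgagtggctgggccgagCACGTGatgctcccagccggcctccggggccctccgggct
MCOLN1 (chr19:7522504-7522623, plus strand): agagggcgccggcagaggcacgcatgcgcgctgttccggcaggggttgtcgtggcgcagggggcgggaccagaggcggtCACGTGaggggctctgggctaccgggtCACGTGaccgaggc
CLCN7 (chr16:1475048-1475077, minus strand): atCACGTGgccccgtcgcgcgtCACGTGgc
ATP6V0B (chr1:43974900-43974929, plus strand): ggtCACGTGgtaccggcgcatCACGTGggc
ATP6V0D1 (chr16:67481199-67481228, minus strand): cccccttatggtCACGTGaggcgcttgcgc
MCOLN1, CLCN7 and ATP6V0B each carried 2 copies. In MCOLN1 both copies, which begin 41 and 14 bases before the start, have T before and A after the capitals, and transcripts starting within 100 bases of that start took 86.9% to 93.5% of the gene's counts. In CLCN5 the copy lies in the window of a second start whose transcript took 7.98% of the gene's counts at most, whereas transcripts of the start farther upstream, whose window holds no CACGTG, took 85.5% to 97.6%. The upstream CLCN5 window does hold TCATGTG or its complement, at position 22 counting the start as 1. ATP6V0E2 was like CLCN5 for CACGTG, since transcripts of the starts with CACGTG took at most 5.33% of its counts. In ATP6V0B, transcripts starting within 100 bases of the start with CACGTG took 43.9% to 53.3% of the counts.

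**Figure D2:**
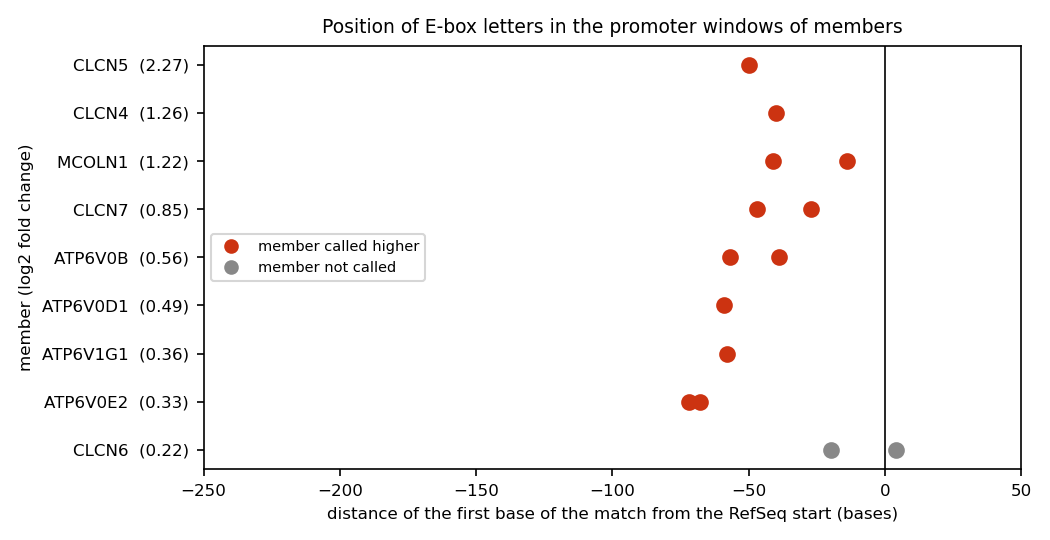
Position of CACGTG in the promoter windows of the 9 members that hold it, as the distance in bases of the first base of each match from the RefSeq start (vertical line), ordered by log2 fold change, which is given in brackets. Red marks members called higher in Doxy(+) and grey the one not called. In the 8 members called higher the matches begin between 72 and 14 bases before a start.

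Within V0, 7 of 9 subunits were called higher, with a median log2 fold change of 0.38. ATP6V0D2, the d paralog known from osteoclasts, macrophages and intercalated cells, had the largest fold change of all tested members. Its Doxy(-) libraries had 3.06 and 2.73 CPM, against 17 and 15 CPM in Doxy(+). Both induced libraries were thus well above both controls, a fold change of 5.56 (95% confidence interval 4.29 to 7.20) with an adjusted p of 0.000346 by edgeR. Its ubiquitous paralog ATP6V0D1, which couples the c ring to the central stalk, rose from 123 and 116 CPM to 172 and 164 CPM (log2 fold change 0.49 ± 0.046, SE). Compared per length, ATP6V0D1 still held most of the d subunit message. The share of ATP6V0D2 in the d subunit TPM, a transcript abundance corrected for length, was 1.97% and 1.23% in Doxy(-) against 5.71% and 5.58% in Doxy(+). The groups did not overlap, but an exact two-sided permutation test of 2 libraries against 2 cannot give less than p = 0.333. CD68, which lysosomes of many cells carry, was the only one of 6 leukocyte or osteoclast markers called higher, the sum of the 6 being 152 and 158 CPM in Doxy(-) and 197 and 201 CPM in Doxy(+). PTPRC, which marks leukocytes, had at most 0.666 CPM.

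The proton-carrying ring is built from ATP6V0C (subunit c) and ATP6V0B (subunit c″). ATP6V0B rose from 81.0 and 72.3 CPM to 113 and 112 CPM (log2 fold change 0.56 ± 0.064, adjusted p = 0.0028 by edgeR). ATP6V0C rose from 92.9 and 91.9 CPM to 114 and 126 CPM (0.38 ± 0.059). The small membrane subunit e was higher in both of its forms: ATP6V0E1 had a log2 fold change of 0.43 and ATP6V0E2 one of 0.33. In contrast, of the a paralogs, which hold the proton channel and direct the pump to different membranes, ATP6V0A1 was called, at 47.2 and 51.1 CPM in Doxy(-) against 61.3 and 61.9 CPM in Doxy(+) (0.33 ± 0.061). ATP6V0A2, the Golgi and early endosome form, and ATP6V0A4, the form of intercalated and proximal tubule cells, had overlapping groups and log2 fold changes of 0.08 and 0.09, with 95% intervals from -0.17 to 0.32 and from -0.34 to 0.52. The a family kept ATP6V0A1 as its leading member, with 59.3% and 64.5% of the a subunit TPM in Doxy(-) and 63.9% and 66.5% in Doxy(+). The call of ATP6V0A1 was lost without Doxy(+) 1 (adjusted p = 0.0806 by edgeR) and without Doxy(+) 2 (0.0871), and that of ATP6V0E2 without Doxy(-) 1 (0.0617), Doxy(+) 1 (0.0835) or Doxy(+) 2 (0.156). DESeq2 called neither gene (adjusted p = 0.0621 and 0.221), and neither was called with limma on log2(TPM + 1) (0.180 and 0.0620) or, by edgeR, on TPM rescaled to each library's total count, here called length-scaled counts (0.244 and 0.0837). ATP6V0C also lost its call on length-scaled counts (adjusted p = 0.0698 by edgeR).

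Of the 12 V1 subunits, 10 were tested and 8 were called higher, with a median log2 fold change of 0.56. ATP6V1C1, the subunit that bridges stalks and sectors and leaves V1 when the pump comes apart, had 131 and 125 CPM in Doxy(-), against 278 and 274 CPM in Doxy(+). Its level more than doubled in both induced libraries, with a fold change of 2.15 (95% interval 2.01 to 2.30, adjusted p = 7.26e-05 by edgeR). ATP6V1F, a small subunit of the central rotor, went from 72.1 and 74.2 CPM to 147 and 146 CPM, a fold change of 2.0 (1.86 to 2.15), and the interval of its log2 value, 0.90 to 1.11, spans the limit of 1. The groups of both genes were separated by many times their within-group spread. The catalytic head consists of A and B subunits. ATP6V1A, which binds and hydrolyses ATP, rose from 73.5 and 75.5 CPM to 126 and 131 CPM (log2 fold change 0.78 ± 0.047), and ATP6V1B2 from 143 in each Doxy(-) library to 215 and 210.1 CPM (0.58 ± 0.036). ATP6V1H, which silences ATP hydrolysis in free V1, rose from 55.5 and 53.7 CPM to 97.1 and 88.4 CPM (0.77 ± 0.064).

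Among the stalk subunits, ATP6V1E1 had a log2 fold change of 0.55, ATP6V1G1 one of 0.36 and the rotor subunit ATP6V1D one of 0.33. Exons of ATP6V1D overlap those of PALS1 on the other strand, which had a mean count of 1326. ATP6V1G1 was at 76.6 and 88.3 CPM in Doxy(-), against 106 in each Doxy(+) library, and its call was lost without Doxy(+) 1 (adjusted p = 0.0936 by edgeR) or Doxy(+) 2 (0.0790), and on length-scaled counts (0.0688). None of the tissue-restricted V1 paralogs was called. ATP6V1C2, a form of kidney and lung, was at 2.02 and 2.43 CPM in Doxy(-), against 1.50 and 1.75 CPM in Doxy(+), with a log2 fold change of -0.49 (95% interval -1.22 to 0.25) that was not called. Its exons overlap those of PDIA6 on the other strand, which had a mean count of 8124, and whether the counting used the strand is not given in the sources used here. Its share of the C subunit TPM was 1.32% and 1.69% in Doxy(-) against 0.451% and 0.538% in Doxy(+). ATP6V1E2, a testis form, overlapped between groups at 5.74 and 5.84 against 6.99 and 5.59 CPM. Its exons overlap those of RHOQ on the other strand, which had a mean count of 829. ATP6V1B1, the intercalated cell form of subunit B, had 1.0 to 2.5 estimated counts in a library, all under the 3 counts that a count of 0 allows. ATP6V1G2, a neuronal form, had 3.46 and 3.06 counts in Doxy(-) and 0.45 and 6.59 counts in Doxy(+). Both were removed by the low-count filter, so no difference was detectable at this depth.

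**Figure D3:**
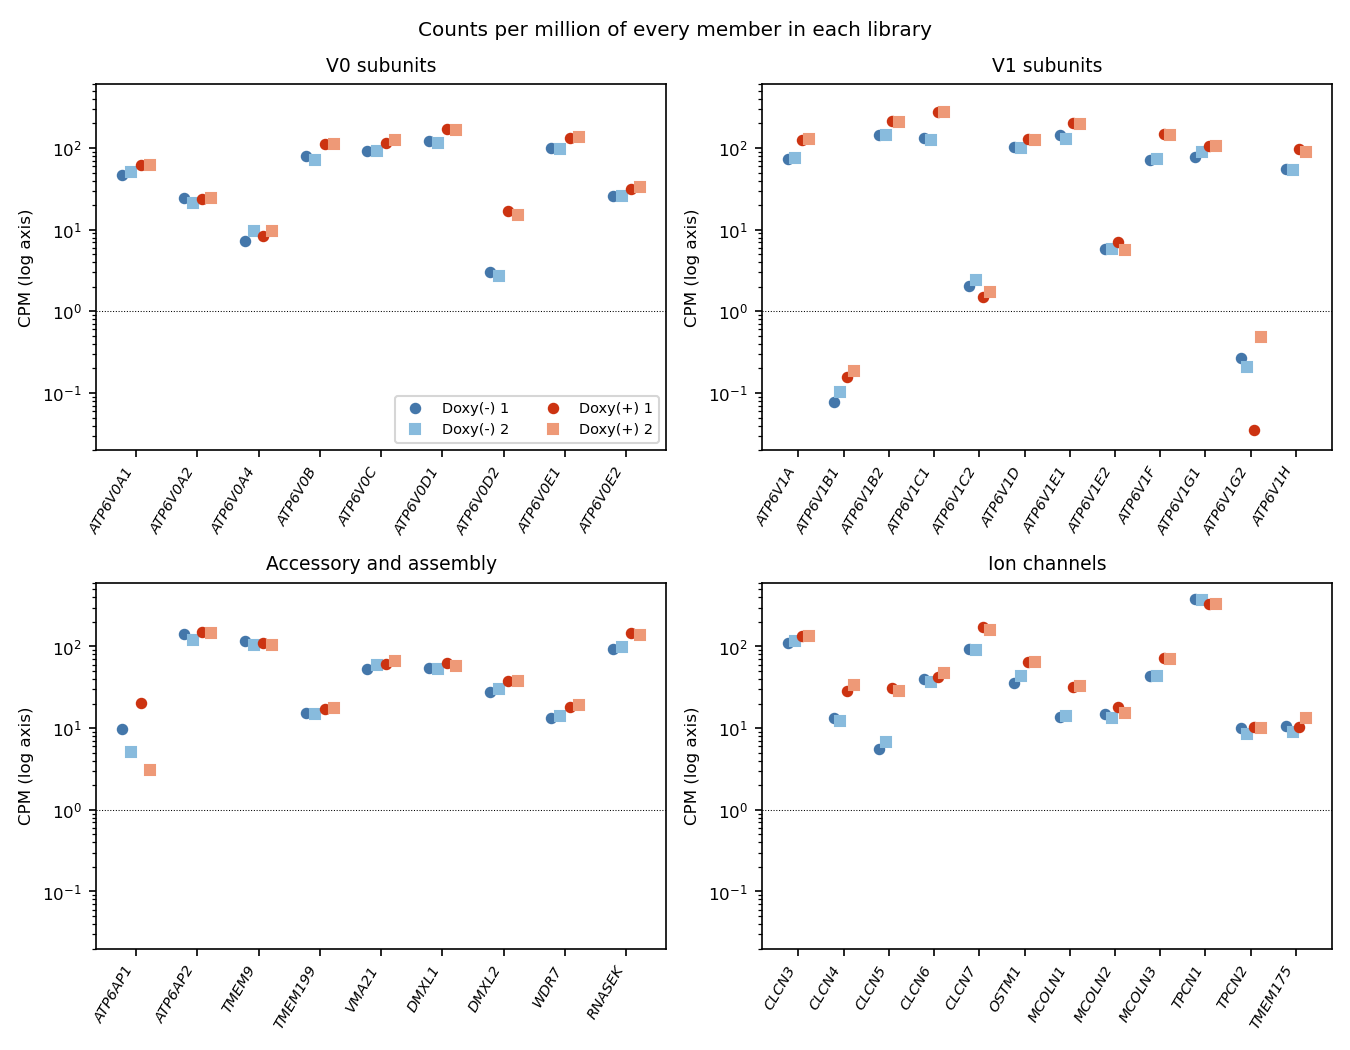
CPM of all 42 members in each library, on a log axis, with blue symbols for the Doxy(-) libraries and red symbols for the Doxy(+) libraries; the dotted line is 1 CPM. ATP6V0D2, ATP6V1C1, CLCN4, CLCN5 and MCOLN1 show the widest gaps between groups, and ATP6AP1 scatters within both groups.

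Read per length and summed over paralogs, the subunits of one pump were not at equal levels. In Doxy(-), subunit A had the lowest V1 level, with 34.9 and 32.5 TPM, and subunit D the highest, with 195 and 184 TPM. In Doxy(+), subunit F was the highest, with 358 and 355 TPM, against 171 and 175 TPM in Doxy(-). Subunit C went from a mean of 70.7 to 161 TPM, a ratio of 2.28, and subunit F had a ratio of 2.06. All other subunits had TPM ratios between 1.19 (a) and 1.76 (H). Every one of the 13 subunits was therefore higher in both Doxy(+) libraries than in both Doxy(-) libraries, by unequal amounts. TPM depends on how the quantifier divided reads among transcripts of different length, so these levels are less exact than the counts per gene.

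**Figure D4:**
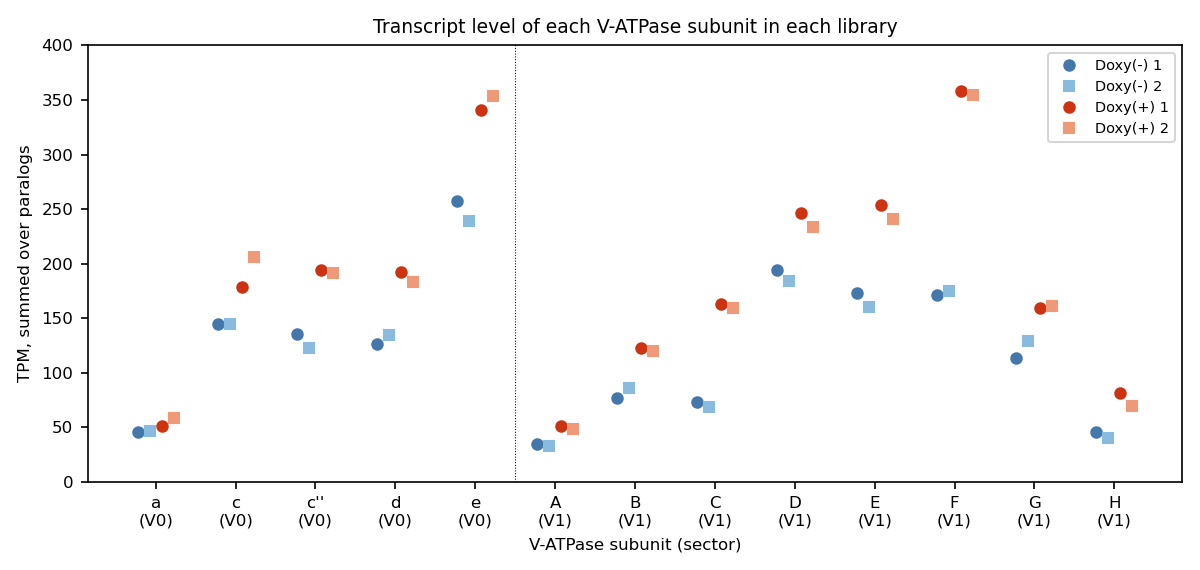
Transcript level of each of the 13 V-ATPase subunits in each library, as TPM summed over its paralogs, with V0 subunits left of the dotted line and V1 subunits right of it. Subunits C and F have the widest gaps between Doxy(-) (blue) and Doxy(+) (red), and subunit a has the narrowest ratio.

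Of the 9 accessory proteins and assembly factors, 3 were called higher, with a median log2 fold change of 0.20. RNASEK, a small protein that associates with the pump, rose from 93.1 and 98.2 CPM to 148 and 137 CPM (log2 fold change 0.57 ± 0.055, adjusted p = 0.00152 by edgeR). Its exons overlap those of C17orf49 on the same strand. The other calls were DMXL2 and WDR7, which together form a rabconnectin complex that puts V1 back on V0. DMXL2 went from 27.8 and 30.2 CPM to 37.6 and 37.9 CPM and WDR7 from 13.2 and 13.9 CPM to 18.3 and 19.4 CPM, with log2 fold changes of 0.38 and 0.47. Neither call held without Doxy(+) 1 (adjusted p by edgeR 0.0802 for DMXL2 and 0.0649 for WDR7) or without Doxy(+) 2 (0.0821 and 0.106), and that of WDR7 was also lost without Doxy(-) 1 (0.0694). DESeq2 gave adjusted p = 0.0962 and 0.167 for the pair. Nor was either gene called in the limma fits, on protein-coding transcripts alone or on length-scaled counts. Exons of WDR7 overlap those of TXNL1 on the other strand, which had a mean count of 675. DMXL1, the other rabconnectin, had a log2 fold change of 0.17 (95% interval 0.016 to 0.32) with an adjusted p of 0.120.

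VMA21 and TMEM199, which help V0 assemble in the endoplasmic reticulum, were not called. VMA21 had 53.6 and 59.5 CPM in Doxy(-), against 60.3 and 66.3 CPM in Doxy(+), and TMEM199 at 15.2 and 15.1 against 17.2 and 17.7 CPM, with log2 fold changes of 0.16 (-0.029 to 0.35) and 0.20 (-0.022 to 0.43). ATP6AP2, the prorenin receptor, which sits in V0, was at 141 and 120.2 CPM against 149.8 and 146 CPM (0.18, -0.0017 to 0.37), and it was called without Doxy(-) 1 (log2 fold change 0.29, adjusted p = 0.00796 by edgeR). TMEM9, a membrane protein that binds accessory subunits, had overlapping groups and a log2 fold change of -0.04 (-0.20 to 0.12). ATP6AP1, the other glycoprotein of V0, could not be read: it had 9.71 and 5.08 CPM in Doxy(-), against 20.1 and 3.05 CPM after induction. The estimate of 0.65 on the log2 scale had an interval from -1.23 to 2.52, turned to -1.27 without Doxy(+) 1 and reached 1.45 without Doxy(+) 2 (adjusted p = 0.0407 by edgeR). Its reads were divided unevenly among its transcripts, and the share in protein-coding ones ran from 1.95% to 67.5%. Identifiers outside GENCODE 44 that repeat its transcripts held a further 0 and 4.98 CPM in Doxy(-) and 9.53 and 1.96 CPM in Doxy(+).

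Of the 12 channel genes, 7 were called higher and TPCN1 lower, with a median log2 fold change of 0.50. The largest fold change among them was in the CLC family. CLCN5, an endosomal chloride/proton exchanger of the proximal tubule whose loss causes Dent disease, went from 5.52 and 6.78 CPM in Doxy(-) to 31.0 and 28.9 CPM in Doxy(+). Both induced libraries exceeded both controls several times over, a fold change of 4.84 (95% interval 3.91 to 5.99, adjusted p = 0.000265 by edgeR). The increase lay mostly on one transcript, CLCN5-202, with 64.4 and 88.4 counts in Doxy(-) and 357 and 332 in Doxy(+). CLCN4, a close relative that forms dimers with CLCN3, went from 13.5 and 12.4 CPM to 28.5 and 33.4 CPM, a fold change of 2.39 (1.98 to 2.90). Its call was lost with limma on log2(TPM + 1) (log2 fold change 0.90, adjusted p = 0.0510) and on length-scaled counts (1.01, adjusted p = 0.0638 by edgeR). CLCN7, the exchanger of lysosomes, rose from 93.8 and 90.7 CPM to 172 and 160.0 CPM (log2 fold change 0.85 ± 0.052). OSTM1, the subunit that CLCN7 needs for stability, rose from 35.8 and 43.0 CPM to 65.3 and 64.8 CPM (0.72 ± 0.090). Loss of either partner is known to cause osteopetrosis.

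CLCN3 and CLCN6 had the smallest estimates of the family. CLCN3 went from 109.7 and 116 CPM to 134 and 135 CPM (log2 fold change 0.26 ± 0.045, adjusted p = 0.0131 by edgeR), a call lost without Doxy(+) 1 (0.0791) or Doxy(+) 2 (0.0862) and on length-scaled counts (0.793). In TPM, where its transcripts are weighted by length, the CLCN3 groups overlapped, and limma on log2(TPM + 1) gave 0.09. CLCN6, of late endosomes, was at 39.8 and 37.0 against 42.6 and 46.7 CPM (0.22, 95% interval 0.042 to 0.40) with an adjusted p of 0.0898 by edgeR. The makeup of the family differed between the groups. CLCN7 held 48.5% and 50.04% of the CLC TPM in Doxy(-) and 61.0% and 54.7% in Doxy(+), while CLCN3 held 35.2% and 33.2% in Doxy(-) and 22.7% and 25.6% in Doxy(+). The share of CLCN5 was 0.809% and 1.05% in Doxy(-) against 3.19% and 3.58% in Doxy(+). None of these shares overlapped between groups, and p = 0.333 is again the smallest that the exact permutation test allows.

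**Figure D5:**
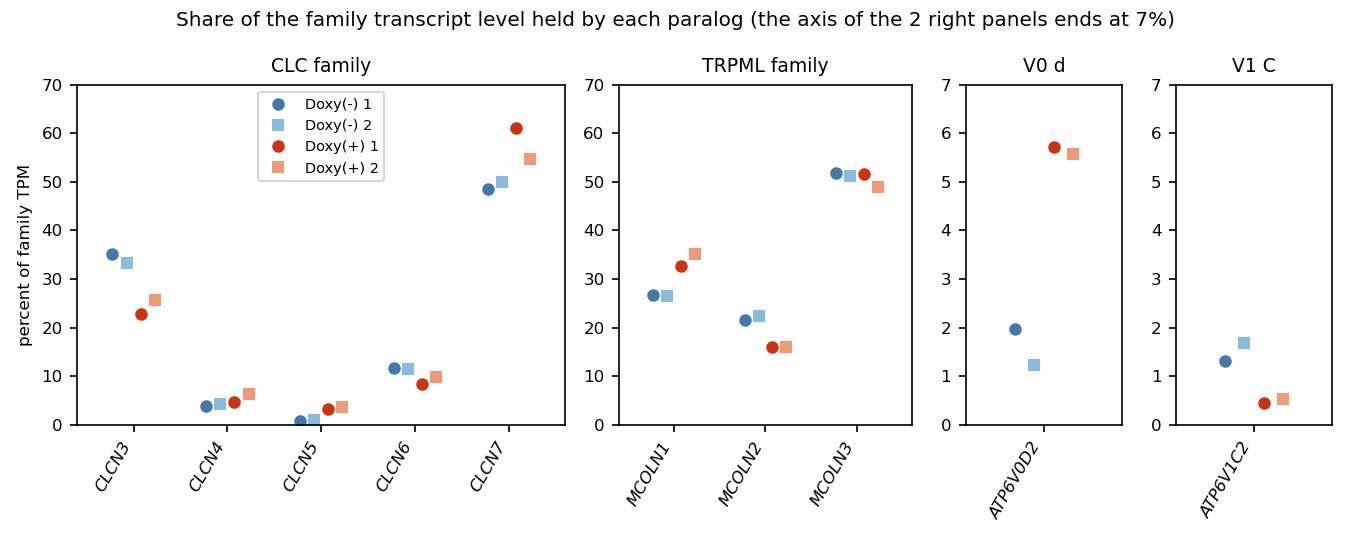
Share of the family TPM (percent) held by each paralog in each library, for the CLC and TRPML families and for the minor paralogs of subunits d and C, whose axes end at 7%. CLCN7, CLCN5, MCOLN1 and ATP6V0D2 have larger shares in both Doxy(+) libraries (red) than in both Doxy(-) libraries (blue), and CLCN3, MCOLN2 and ATP6V1C2 smaller ones.

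The TRPML channels release calcium from endosomes and lysosomes. MCOLN1, the lysosomal form, whose loss causes mucolipidosis type IV, rose from 13.5 and 13.9 CPM to 31.5 and 32.4 CPM, a fold change of 2.33 (95% interval 2.03 to 2.68, adjusted p = 0.000447 by edgeR). MCOLN1-201, its main coding transcript, had 128 and 125 counts in Doxy(-) and 324 and 312 in Doxy(+). MCOLN1 has 1 exon overlap with PNPLA6 on the same strand, which had a mean count of 1405.5. MCOLN3 rose from 43.1 CPM in each Doxy(-) library to 73.2 and 71.1 CPM (log2 fold change 0.74 ± 0.054). Between 34.8% and 44.9% of its counts lay on protein-coding transcripts, and the call was lost when only those were counted (0.72, adjusted p = 0.0679). MCOLN2, found mainly in lymphoid and myeloid cells, was at 15.1 and 13.4 against 18.2 and 15.4 CPM (0.23, -0.077 to 0.54) and was not called. MCOLN1 held 26.6% and 26.5% of the TRPML TPM in Doxy(-) and 32.6% and 35.2% in Doxy(+), MCOLN2 held 21.6% and 22.4% against 15.9% and 16.0%, and the shares of MCOLN3 overlapped between groups.

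Two-pore channels pass sodium or calcium across the same membranes. TPCN1, the form found along the whole endosomal path, had the highest CPM of the 42 members, 379 and 370.3 in Doxy(-) and 327 and 329.8 in Doxy(+). Both induced libraries were below both controls by a modest amount, a log2 fold change of -0.19 (95% interval -0.27 to -0.11, adjusted p = 0.00962 by edgeR). That call was lost without Doxy(+) 1 (0.0908) or Doxy(+) 2 (0.0750) and on length-scaled counts (0.196), and exons of TPCN1 overlap those of IQCD on the other strand, which had a mean count of 705. TPCN2, of late endosomes and lysosomes, was at 9.93 and 8.37 against 10.3 and 10.1 CPM (0.16, -0.18 to 0.50). TMEM175, a lysosomal potassium and proton channel, was at 10.5 and 8.92 against 10.3 and 13.2 CPM, with overlapping groups and no call (0.28, -0.13 to 0.69). The share of its counts on protein-coding transcripts was 35.7% and 33.4% in Doxy(-) against 68.4% and 54.4% in Doxy(+). Counted on those alone, TMEM175 had a log2 fold change of 1.07 (adjusted p = 0.0387 by edgeR), and its transcript TMEM175-201 had 10.3 and 7.87 counts in Doxy(-) and 67.7 and 69.6 in Doxy(+).

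For comparison, 29 other genes of endolysosomal pH and ion balance were read from the same fit. Of the 27 that were tested, 5 were called higher (18.5%) and 2 lower, where 9.76% of all genes tested were called higher and 9.53% lower. The median log2 fold change of the 27 was 0.01. VAC14 and FIG4, the scaffold and the phosphatase of the complex that makes the lysosomal lipid PI(3,5)P2, an activator of TRPML and two-pore channels, had log2 fold changes of 0.75 ± 0.044 and 0.82 ± 0.067. VAC14 rose from 93.6 and 89.6 CPM in Doxy(-) to 155 and 153 CPM in Doxy(+), and FIG4 from 28.0 and 29.5 to 49.0 and 52.5 CPM. PIKFYVE, the kinase of that complex, was not called (0.16, adjusted p = 0.0852 by edgeR). LRRC8E, a subunit of the volume-regulated anion channel, had a log2 fold change of 0.60 (adjusted p = 0.0017 by edgeR), and its partners LRRC8A to LRRC8D were not called. TMEM106B, a lysosomal membrane protein, and CCDC115, the assembly partner of TMEM199, made up the 5, with 0.59 and 0.45. The lower calls were MEAK7 (-0.25) and JPT2 (-0.22), a protein that binds the two-pore channel activator NAADP.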

How the data were processed

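PolyA RNA of 4 libraries was sequenced after stranded TruSeq preparation. The submitters' processing notes name Trim Galore 0.6.6, cutadapt 2.5, STAR 2.7.9a and hg38, and the study's methods add RSEM and DESeq2. The files deposited by the authors instead hold, per Ensembl transcript, estimated counts and TPM in a kallisto layout; the quantifier, its annotation release and its use of strand are not given in the sources used here. The deposited estimated counts are not normalized and need not be whole, since reads shared by transcripts were apportioned. The deposited TPM, scaled by the authors' quantifier for length, sum to 1000000 per library.

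Identifiers were matched to GENCODE 44 (150691 of 180253, 83.6%; the rest carried 9.66% to 9.89% of counts and were left out), summed per gene and rounded. The group effect was tested with edgeR 4.0.16 (R 4.3.3; TMM, filterByExpr, glmQLFit, glmQLFTest), a gene being called at an adjusted p under 0.05. An SE is the one implied by the F statistic, and CPM are scaled to TMM-adjusted totals. The script was tested on simulated counts. Limits from counting cover counting error only. Alternatives used DESeq2 1.42.0, limma 3.58.1 on log2 TPM, other scalings, filters and transcript sets, a replicate block, and each library left out. All members were named whatever their result. Of the comparison list those called were named, and PIKFYVE and LRRC8A to LRRC8D were added after their values were seen. Members and lists were chosen with earlier results of these data known. Promoters came from RefSeq. The labels do not say what numbers 1 and 2 mark. Deviations of same-numbered libraries from their group means correlated at -0.222 over 9609 genes. With 2 libraries in a group this cannot decide whether the libraries are paired.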

Additional observations from a re-analysis of the deposited data

Results flagged for a closer look

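Signal lay in identifiers that the comparisons did not use. Some identifiers that GENCODE 44 does not list repeated the length and the 4 counts of a listed transcript of ATP6V1A, TMEM199 or ATP6AP1. Those repeating ATP6V1A had a mean of 3.51 CPM in Doxy(-) and 7.33 CPM in Doxy(+), and those repeating TMEM199 had 15.2 CPM in Doxy(-) and 17.4 CPM in Doxy(+). Those repeating ATP6AP1 overlapped between the groups, at 0 and 4.98 CPM against 9.53 and 1.96 CPM. Adding such copies to their genes changed no member's call.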

How the results depend on the processing

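Of the 26 called members, 16 kept their call under each of the 16 alternatives, and the other 10 (ATP6V0A1, ATP6V0C, ATP6V0E2, ATP6V1G1, DMXL2, WDR7, CLCN3, CLCN4, MCOLN3 and TPCN1) lost it under 1 or more while keeping their direction. The replicate block left 25 members called higher and 1 lower, as did the crossed pairing, which was chosen after seeing the data, and neither changed a call. Over all genes, 2618 were called, against 1555 with DESeq2, 904 and 889 with limma on log2(TPM + 1) and log2(TPM + 0.1), 1596 on protein-coding transcripts, 787 on length-scaled counts, and 1212 and 1328 without Doxy(+) 1 or Doxy(+) 2. Accessory members called higher numbered 1 with DESeq2, either limma fit, protein-coding transcripts, length-scaled counts or an adjusted p under 0.01, and 1 to 3 with 1 library left out. The count called lower was 0 with either limma fit and on length-scaled counts, and 0 to 1 with 1 library left out, against 1 member at an unadjusted p under 0.05 in the edgeR test of all 4 libraries. V0 subunits called higher numbered 4 on length-scaled counts. The channel median was 0.53 with limma on log2(TPM + 0.1), 0.77 on protein-coding transcripts, 0.55 on length-scaled counts and 0.49 to 0.58 with 1 library left out. The accessory median was 0.28 on protein-coding transcripts, 0.13 on length-scaled counts and 0.22 to 0.29 with 1 library left out, and the V0 median was then 0.32 to 0.44. Values of 6 uncalled genes changed sign. With 1 library left out, ATP6V0A2 ranged from -0.035 to 0.19, ATP6V0A4 from -0.092 to 0.30, ATP6V1E2 from -0.054 to 0.27, ATP6AP1 from -1.27 to 1.45 and TMEM9 from -0.12 to 0.039. TMEM199 was -0.028 and -0.030 in the limma fits with pseudocounts of 1 and 0.1, and -0.068 on length-scaled counts. The cause was not tested. With 1 library left out, a group of 1 is assumed to vary like the other group.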
